A study of Mus musculus with 12 samples.

Results

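Interferon-stimulated genes were followed across autophagy-deficient vascular tumor cells. The 38 genes were taken by symbol from a fixed list, and 38 were found among the 14851 genes of the deposited tables. No measured value entered the choice. The cells are 562 cells, a spontaneously immortalized line grown from skin tumors of a Tsc1 f/f mouse whose inducible Scl-Cre deletes Tsc1 in endothelial cells. All 4 groups derive from this line and so share the loss of Tsc1, although the labels give the control genotype as wildtype, the strain as C57BL/6 and the tissue as lymphatic endothelial cells. Control cells were compared with cells knocked out (KO) for Fip200, for Atg5 or for Atg7, with 3 libraries each and 12 in all. Per the study's methods, the KO cells were made with lentiviral Cas9 and guides against the named gene, the control guide targeted EGFP, and every line passed puromycin selection. Whether a library came from 1 clone or from mixed cells is not given in the labels. The study describes a pair of Fip200 KO clones and a pair of Fip200 guides, and which of them each Fip200 KO library came from is not given, so that these libraries may mix clones. FIP200 starts autophagosome formation, while Atg5 and Atg7 act in the conjugation of LC3. The question put to these cells was which genes depend on autophagy.

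Interferons are secreted alarm proteins. Type I interferon binds the receptor IFNAR, the kinases JAK1 and TYK2 become active, and the factor ISGF3, which holds STAT2 and IRF9, enters the nucleus and binds interferon-stimulated response elements in promoters. The induced genes include sensors of viral RNA and DNA, enzymes that degrade or trap viral RNA, the ubiquitin-like protein ISG15, and IRF7, which amplifies interferon production. Many of them are also expressed at a low tonic level in cells that no one has treated with interferon. No interferon was among the labelled treatments here.

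Values are RPKM, reads scaled to gene length and to library total, so that levels are comparable between genes. A log2 fold change is the difference of means of log2(RPKM + 0.5), which understates changes of genes near 0. Genes whose log2 fold change reached 1 in size, with an adjusted p up to 0.1 from limma, were called. The libraries held 17266926 to 23629730 reads. The labels do not say that the replicates were separate cultures, and the study calls them independent, so p-values measure the spread between these samples. Atg7 RNA fell in Atg7 KO cells (5.40, 2.64 and 8.34 RPKM against 18.4, 25.0 and 19.8 in control, log2 fold change −1.97, adjusted p = 0.0216 from limma). All Atg5 KO libraries lay below control for this gene too (9.99, 11.9 and 9.94 RPKM), and its Fip200 KO values were 38.3, 12.4 and 8.23, so low values were not particular to the Atg7 KO libraries. Rb1cc1, which encodes FIP200, was at 5.18, 6.84 and 2.06 RPKM in Fip200 KO and at 6.43, 8.28 and 7.73 in control, and Atg5 RNA was at 8.53, 15.6 and 12.6 in Atg5 KO and at 14.2, 11.1 and 10.6 in control. A guide need not lower RNA, so these values do not check the labels. Endothelial markers were high (summed RPKM of 9 markers 1156 to 3295), although Cldn5 of that list was at 0.299 and 0.143 RPKM in control replicates 2 and 3. Of the lymphatic markers, Lyve1, Pdpn and Flt4 were at 31.7 RPKM or more in every library, whereas the defining factor Prox1 reached at most 5.79. The leukocyte markers Ptprc, Adgre1 and Csf1r were under 0.5 RPKM in every library, while Cd68, Cd14 and Lyz2 of the same list reached 263, 73.0 and 26.4.

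Of the 38 interferon-stimulated genes, 37 had more than 3 reads in every library, and the exception was Zbp1, which was under 0.5 RPKM in all Fip200 KO libraries. Levels differed between libraries of 1 group. Averaged over 12 libraries, 4 of 38 genes stood at 100 RPKM or more, 25 between 10 and 100 and 9 under 10. In each library, the difference from the control mean was taken for every gene, and the median over the 38 genes was read. It was 0.28, −0.09 and −0.19 in the control libraries on the log2 scale. In Fip200 KO cells it was −1.24, −0.81 and 0.03. In Atg5 KO cells it was 0.04, −0.27 and 0.65, and in Atg7 KO cells 0.87, 0.34 and 0.41. The median of all genes lay between −0.05 and 0.06 in every library. Fip200 KO replicates 1 and 2 were thus low, Atg5 KO replicate 3 and all Atg7 KO libraries were high, and the median of Fip200 KO replicate 3 was near 0, with 19 genes below and 19 above the control mean (quartiles −0.56 and 0.354). For 26 of 38 genes the lowest of the 12 values was in Fip200 KO replicate 1, and for 21 the highest was in Atg7 KO replicate 1. Such counts were not taken over all genes, and the spread between replicates over all genes was largest in Fip200 KO cells.

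**Figure D1:**
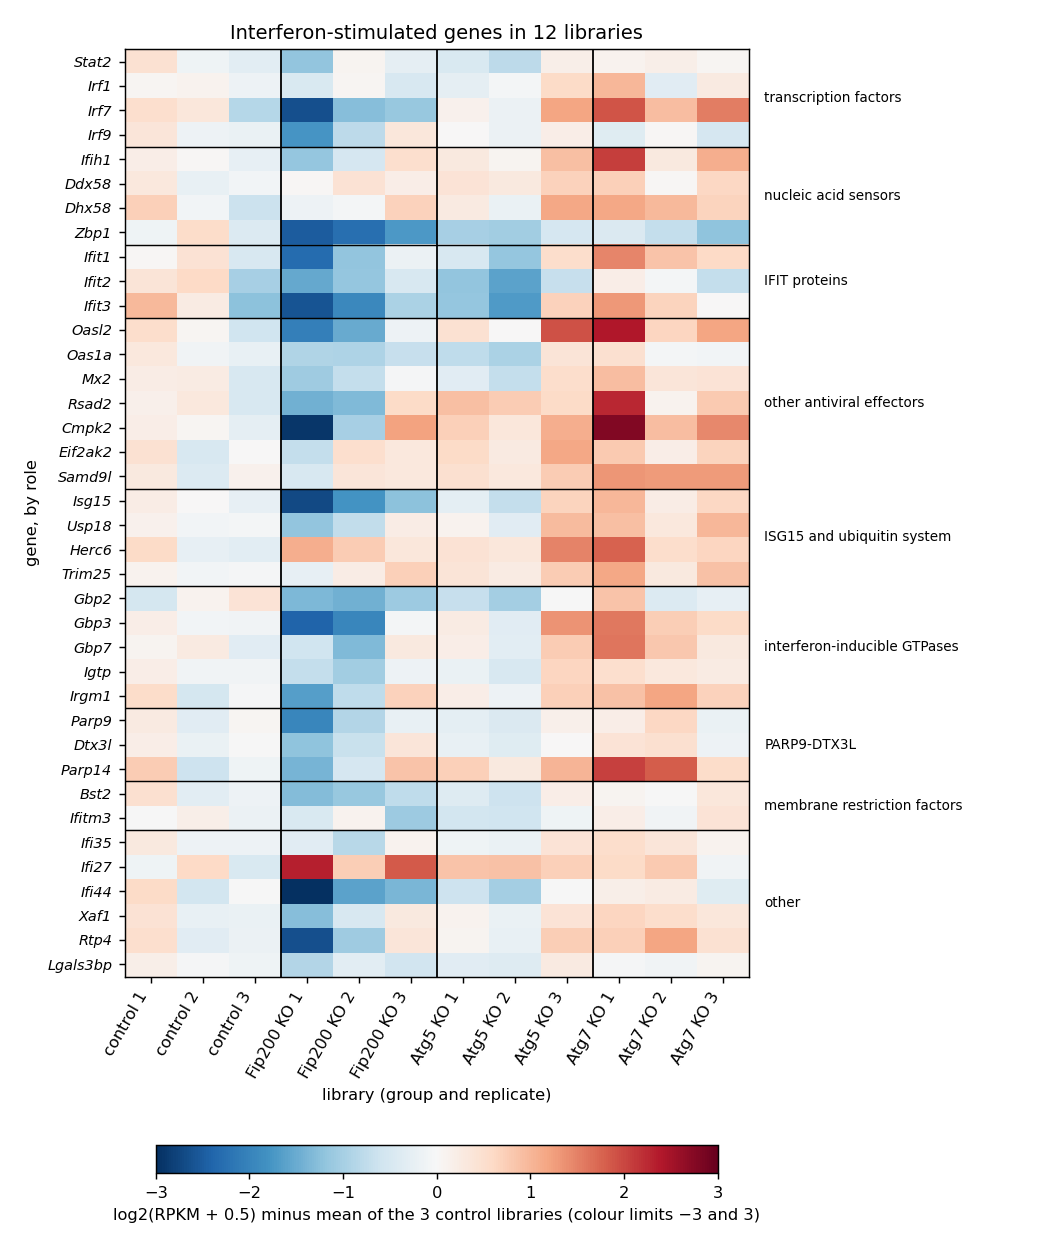
Log2(RPKM + 0.5) of the 38 interferon-stimulated genes (rows, ordered by role) in the 12 libraries (columns), minus the mean of the 3 control libraries. Blue is lower and red is higher than control, with colours limited at −3 and 3. Fip200 KO replicate 1 is the bluest column (35 of 38 genes below the control mean) and Atg7 KO replicate 1 the reddest (35 of 38 above).

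**Figure D2:**
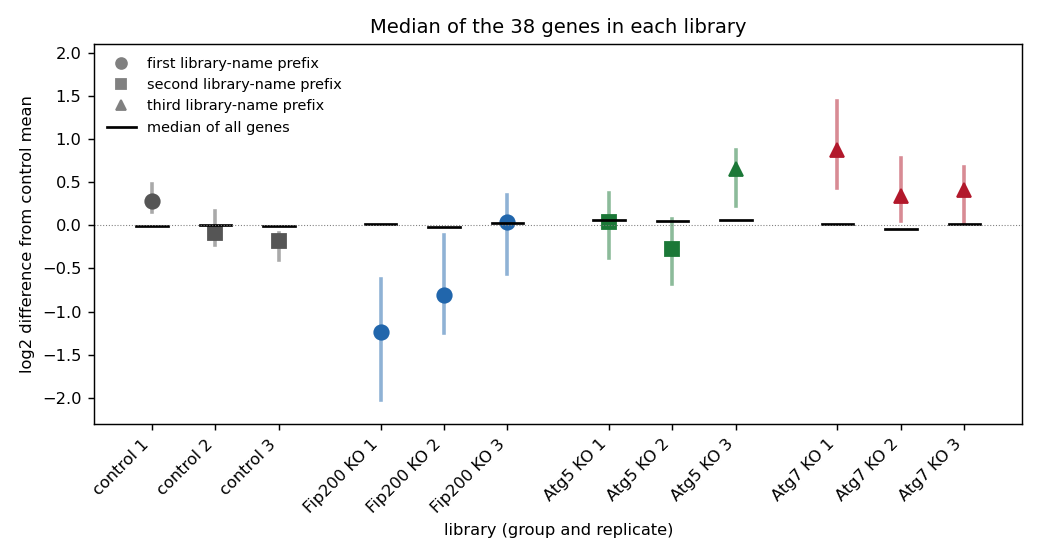
Median (marker) and quartiles (vertical line) over the 38 genes of the log2 difference from the control mean in each library, with the median of all genes as a black bar. Marker shape gives the prefix that libraries share in their names. Medians run from −1.24 in Fip200 KO replicate 1 to 0.87 in Atg7 KO replicate 1.

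The spread between replicates was read for these genes and for all genes. The median SD over the 3 replicates, on the log2 scale, was 0.73 for the 38 genes and 0.41 for all genes in Fip200 KO cells, 0.45 and 0.16 in Atg5 KO cells, 0.38 and 0.27 in Atg7 KO cells, and 0.38 and 0.22 in control. Within Fip200 KO cells, replicate 3 held the highest value for 29 of 38 genes, against 40.1% of all genes. Within Atg5 KO cells, replicate 3 held the highest value for 36 of 38 genes, against 43.7% of all genes, and lay above the mean of the other two by a median of 0.73 on the log2 scale. Control replicate 1 was the highest control library for 28 of 38 genes, against 34.2% of all genes. The Fip200 KO replicate whose median was nearest to 0 was also the one with the lowest Rb1cc1 RNA. Other markers differed between libraries as well. The summed RPKM of 6 leukocyte-list genes, carried by Cd68, Lyz2 and Cd14, was 108 to 134 in control, 23.4 to 285 in Fip200 KO and 24.0 to 31.6 in the other KO libraries. That of 5 fibroblast genes was 3.12 to 209 in control and at most 35.7 in the KO libraries. The part of these cell markers in the interferon-stimulated genes was not tested.

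Against control, 2 of 38 genes were called lower and 0 higher in Fip200 KO cells, where 1.64% of 11803 tested genes were called lower and 0.347% higher. The genes were Isg15 and Zbp1, of which Zbp1 passed the filter on low values through its control libraries alone. In Atg5 KO cells 1 gene, Ifit2, was called lower and 0 higher, where 6.94% of 11833 genes were called lower and 4.31% higher. In Atg7 KO cells 5 genes, Irf7, Oasl2, Cmpk2, Samd9l and Parp14, were called higher and 0 lower, where 3.29% of 11784 genes were called higher and 6.81% lower. The 3 comparisons share their control libraries. Where the count was 0, limma's voom on reads also called 0. At an unadjusted p under 0.05, 11 genes were lower (9.52% of all genes) and 1 higher (6.61%) in Fip200 KO cells. For Atg5 KO cells 3 were lower (19.6%) and 6 higher (24.2%), and for Atg7 KO cells 1 was lower (18.0%) and 16 higher (15.7%). The Atg5 KO counts were 9 lower and 4 higher without Atg5 KO replicate 3 (4662 of 11703 genes in either direction). Without Atg5 KO replicate 2 they were 0 lower and 8 higher (4065 of 11663 genes).

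Most of the 38 genes did not pass the test, and the direction of their values differed between the KO cells. In Fip200 KO cells 31 of 38 log2 fold changes were below 0, with a median of −0.60, against 0.016 over all genes tested. That median was −0.369 without Fip200 KO replicate 1 and −0.95 without replicate 3. In Atg5 KO cells 16 of 38 were below 0, with a median of 0.095 against 0.055. Without Atg5 KO replicate 3, 25 of 38 were below 0 and the median was −0.1, and without Atg5 KO replicate 2 these were 12 and 0.243. In Atg7 KO cells 4 of 38 were below 0, with a median of 0.56 against −0.008, but with a term for the prefix of the library names 21 of 38 were below 0 and the median was −0.125. The libraries of 9 genes in Fip200 KO cells all lay below those of control (12.4% of all genes) and those of 1 gene above (11.7%). Of the Atg5 KO values, those of 1 gene lay below (22.0%) and of 5 above (28.4%), and of the Atg7 KO values, those of 1 below (20.4%) and of 13 above (19.2%). In Atg5 KO cells the share of the 38 genes that did not overlap was below that of all genes in both directions.

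**Figure D3:**
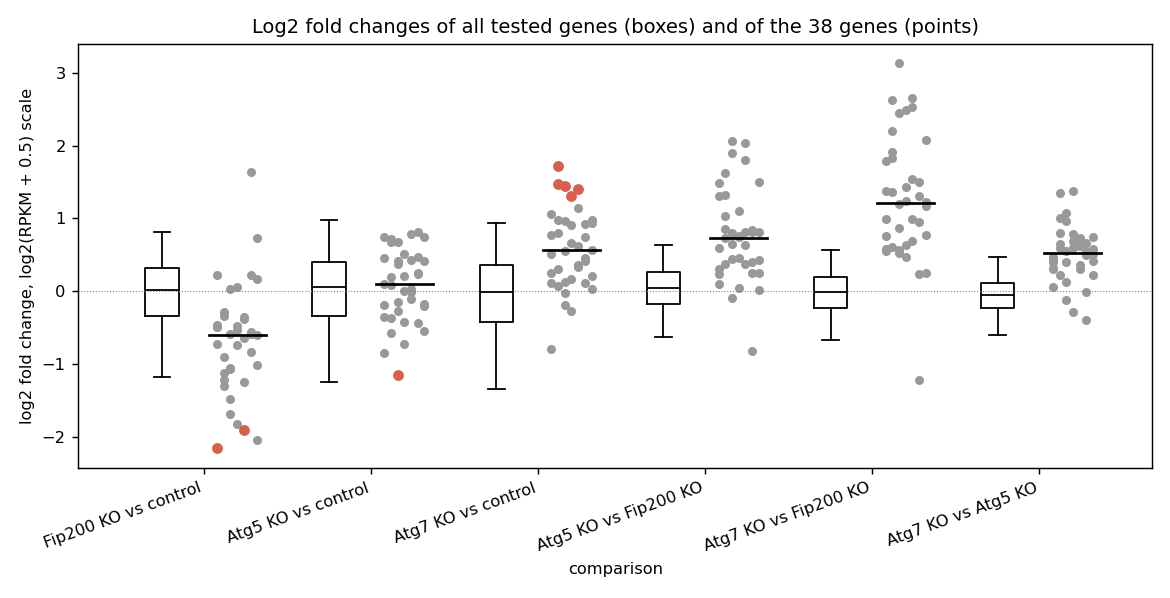
Log2 fold changes of the 38 genes (points, with their median as a bar) beside those of all tested genes (box: quartiles and median, whiskers: percentiles 5 and 95) in the 6 comparisons. Red points are the genes called. The median of the 38 genes is −0.60, 0.095 and 0.56 for Fip200 KO, Atg5 KO and Atg7 KO against control, and 1.21 for Atg7 KO against Fip200 KO cells.

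Transcription factors. Irf7, which drives type I interferon genes and is itself interferon-induced, spanned the widest range of the 4 factors, from 5.66 to 141 RPKM. It was at 54.0, 48.4 and 20.9 RPKM in control, 5.66, 15.4 and 17.1 in the Fip200 KO, 41.5, 33.8 and 86.3 in the Atg5 KO libraries and 141, 72.6 and 112 in those of Atg7 KO. Every Fip200 KO library was below and every Atg7 KO library above all control libraries, while Atg5 KO overlapped with control. In Atg7 KO cells Irf7 rose by a log2 of 1.45 (standard error 0.40, adjusted p = 0.0541 from limma). That call was lost without control replicate 2 (log2 fold change 1.62), control replicate 3 (1.03), Atg7 KO replicate 1 (1.23) or Atg7 KO replicate 3 (1.40), and with a term for the prefix of the library names (0.504, adjusted p = 0.882 from limma). In Fip200 KO cells its log2 fold change was −1.68, with an adjusted p of 0.186 from limma, which did not pass. Stat2, the ISGF3 subunit that carries the activation domain, was at 40.7, 27.1 and 23.6 RPKM in control, 12.7, 31.5 and 24.5 in the Fip200 KO, 21.3, 17.1 and 33.7 in the Atg5 KO libraries and 32.1, 33.5 and 30.7 in those of Atg7 KO. Irf9, the DNA-binding subunit of ISGF3, was at 31.3, 21.9 and 21.2 in control, 6.76, 13.9 and 31.0 in the Fip200 KO, 24.5, 21.6 and 27.9 in the Atg5 KO libraries and 18.9, 24.8 and 17.2 in those of Atg7 KO. Both overlapped with control in all KO cells and were called in none. Irf1, a factor most responsive to interferon gamma, was at 5.02, 5.15 and 4.25 RPKM in control, 3.35, 5.00 and 3.31 in the Fip200 KO, 3.90, 4.58 and 7.42 in the Atg5 KO libraries and 10.1, 3.69 and 5.85 in those of Atg7 KO, again with overlap and no call.

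Isg15 and the ubiquitin system. Isg15 encodes a ubiquitin-like protein that is attached to other proteins and also secreted. Its RPKM was 131, 114 and 94.8 in control and 16.8, 31.9 and 47.7 in Fip200 KO libraries, with no overlap. It was 91.6, 68.6 and 178 in the Atg5 KO libraries and 226, 130 and 174 in those of Atg7 KO. Isg15 fell in Fip200 KO cells (113 ± 18.3 to 32.1 ± 15.5 RPKM, SD, n = 3 each, log2 fold change −1.91, standard error 0.37, adjusted p = 0.0860 from limma). The call was lost when any control library (log2 fold changes between −2.04 and −1.80) or Fip200 KO replicate 2 (−1.97) was left out. Its call was also lost with the replicate block (adjusted p = 0.129 from limma), with no filter, and with a term for the prefix of the library names, and adjusted p-values over all alternatives ranged from 0.0274 to 0.442. Usp18, which removes ISG15 and restrains the receptor, Herc6, the ligase that attaches ISG15 in mice, and Trim25, a ubiquitin ligase for the sensor RIG-I, were called in no KO cells. Herc6 was at 2.03 to 4.21 RPKM in control and 3.55 to 6.23 in Fip200 KO libraries, so it did not share the low values of Isg15. Trim25 was at 19.8 to 22.7 RPKM in control, and all Atg5 KO (24.8 to 35.7) and all Atg7 KO libraries (25.8 to 47.9) lay above. Usp18 was at 30.5 to 35.9 RPKM in control and at 40.9 to 65.4 in Atg7 KO libraries.

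The Isg15 promoter is printed because Isg15 was the only one of the 6 called genes with a promoter in the reference table that held a match to the core of an interferon-stimulated response element, read as GAAA, any 2 bases and GAAA, within 250 bases before to 50 bases after its annotated start. The sequence is RefSeq's for the mouse build GRCm38.p6, chr4:156200819-156201068, minus strand, read 5′ to 3′ along the gene and ending just before the start. Capitals mark 3 overlapping matches, which begin 78, 72 and 66 bases before the start.
Isg15: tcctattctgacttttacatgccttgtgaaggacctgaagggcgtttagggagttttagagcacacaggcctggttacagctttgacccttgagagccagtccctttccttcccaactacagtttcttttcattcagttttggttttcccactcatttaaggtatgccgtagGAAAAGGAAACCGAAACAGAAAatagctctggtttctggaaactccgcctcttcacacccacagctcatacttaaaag

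The motif was searched on both strands in promoters of all genes, counting overlapping matches. Of the 38 genes, 30 had a promoter in the table, and 16 of these (53.3%) held the element, against 3.44% of 32851 promoters and 3.59% of 9699 expressed genes with a promoter. The genes were Stat2, Ifih1, Ddx58, Ifit1, Ifit3, Oas1a, Rsad2, Eif2ak2, Isg15, Gbp2, Gbp3, Gbp7, Igtp, Irgm1, Bst2 and Ifitm3. In 8 genes there were at least 2 matches, against 0.289% of expressed genes. The list was drawn from genes known to be interferon-induced. Promoters of Dhx58, Zbp1, Mx2, Usp18, Parp9, Parp14, Ifi27 and Rtp4 were not used here. In the promoter windows of the called genes Irf7, Oasl2, Cmpk2, Samd9l and Ifit2 these letters did not occur.

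For genes with a pair of matches close together before the start, 40 bases around the matches are printed, chosen after their values were seen. The stretches were picked by their matches, so their likeness there is no result. Capitals mark the matches, which read TTTC, any 2 bases and TTTC where the element lies on the other strand.
Ifit1 (chr19:34640779-34640818, plus strand): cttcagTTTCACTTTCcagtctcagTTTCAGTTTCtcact
Gbp3 (chr3:142559987-142560026, plus strand): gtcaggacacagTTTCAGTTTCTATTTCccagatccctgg
Oas1a (chr5:120907526-120907565, minus strand): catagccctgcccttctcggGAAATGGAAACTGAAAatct
Irgm1 (chr11:48871423-48871462, minus strand): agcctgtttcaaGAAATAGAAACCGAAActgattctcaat
Bst2 (chr8:71537575-71537614, minus strand): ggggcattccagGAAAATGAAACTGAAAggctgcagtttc

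In Gbp3, Oas1a, Irgm1 and Bst2 the matches overlapped, as in Isg15, and in Ifit1 they were apart. Gbp3 and Ifit1 were low in Fip200 KO replicate 1 (2.82 and 3.14 RPKM) and high in Atg7 KO replicate 1 (52.0 and 49.5), and Oas1a was at 10.3 to 12.1 RPKM in all Fip200 KO libraries, 16.9 to 25.0 in control and 28.1 in Atg7 KO replicate 1, its highest value. Bst2 was highest in control replicate 1 (787, against 601 in Atg7 KO replicate 1). Irgm1 was highest in Atg7 KO replicate 2 (62.1), and its value in Fip200 KO replicate 3 (43.7) lay above control. Whether the matches go with these values was not tested.

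**Figure D4:**
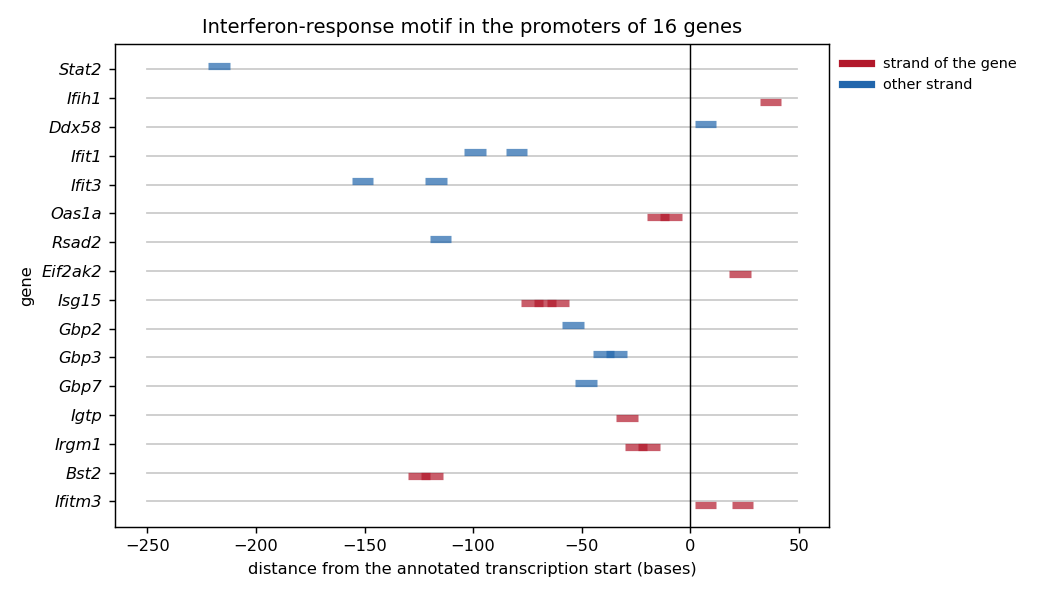
Position of the element (GAAA, any 2 bases, GAAA) relative to the annotated transcription start (0) in the promoters of 16 genes, from 250 bases before to 50 after, red on the strand of the gene and blue on the other strand. The Isg15 matches begin 78, 72 and 66 bases before the start, and those of Ifih1, Ddx58, Eif2ak2 and Ifitm3 lie after it.

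Nucleic acid sensors. Zbp1, a sensor of Z-form nucleic acids that triggers cell death, was the lowest of the 38 genes in level. It was at 2.07, 3.66 and 1.62 RPKM in control and 0, 0.0919 and 0.358 in Fip200 KO libraries, from 85, 187 and 69 reads against 0, 4 and 17. It was at 0.910, 0.876 and 1.498 RPKM in the Atg5 KO libraries and 1.58, 1.22 and 0.725 in those of Atg7 KO, so that every KO library lay below every control library. Zbp1 fell in Fip200 KO cells (log2 fold change −2.16, standard error 0.36, adjusted p = 0.0616 from limma). The call was lost without Fip200 KO replicate 1 (−1.99) or replicate 2 (−2.11), with the replicate block (adjusted p = 0.114 from limma) and with the prefix term (−2.02). All its Fip200 KO values are under the 0.5 RPKM of the filter, so without any 1 of the control libraries Zbp1 was not tested. With voom on reads the value was −4.92 with an adjusted p of 0.111 from limma (0.00803 to 0.256 over its alternatives), on a scale where 0.5 is added to reads and not to RPKM. In Atg5 KO cells its log2 fold change was −0.85 (adjusted p = 0.0686 from limma), under the minimum of 1, and −1.06 without control replicate 3 or −1.02 without Atg5 KO replicate 3, where it was called. In Atg7 KO cells it was −0.79 and did not pass. The RIG-I family differed from Zbp1. Ifih1, which encodes the long-RNA sensor MDA5, was at 6.21 to 8.65 RPKM in control and 32.7, 9.20 and 16.4 in Atg7 KO libraries, all above control, with no call. Ddx58, which encodes RIG-I, varied least of the sensors, at 33.4 to 48.5 RPKM in control and 39.8 to 64.2 over all KO libraries. Dhx58, the regulator LGP2, was at 4.99 to 13.5 RPKM in control, 7.20 to 13.3 in the Fip200 KO, 6.96 to 18.7 in the Atg5 KO libraries and 13.1 to 18.5 in those of Atg7 KO. None of the 3 was called in any KO cells.

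IFIT proteins bind the 5′ ends of foreign RNA. Ifit2 was at 16.4, 19.2 and 6.04 RPKM in control, 3.999, 5.27 and 8.71 in the Fip200 KO, 5.22, 3.75 and 7.56 in the Atg5 KO libraries and 14.3, 11.99 and 7.42 in those of Atg7 KO. Ifit2 fell in Atg5 KO cells (13.9 ± 6.93 to 5.51 ± 1.92 RPKM, SD, n = 3 each, log2 fold change −1.16, standard error 0.44, adjusted p = 0.0894 from limma), although control replicate 3 lay within the Atg5 KO range. The call was lost without control replicate 1 (−0.97) or 2 (−0.86), without Atg5 KO replicate 1 (−1.15) or 2 (−0.93), with no filter, all 12 libraries in one fit, the prefix term (−1.20) or voom, and with the replicate block (adjusted p = 0.144 from limma). Ifit1 was at 18.03, 23.9 and 12.6 RPKM in control and 3.14, 7.44 and 15.5 in Fip200 KO libraries. Its Atg7 KO values of 49.5, 32.0 and 27.0 all lay above control, with a log2 fold change of 0.97, under the minimum. Ifit3 spanned 2.096 to 37.7 RPKM, and its control libraries alone spanned 6.10 to 30.0. Ifit2 and Ifit3 are neighbours in the RefSeq order, and Ifit3 has a near-identical copy, Ifit3b, with which reads may be shared.

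Other antiviral effectors. Samd9l, a cytoplasmic restriction factor, had the smallest adjusted p of the 5 genes called in Atg7 KO cells. Its RPKM was 35.4, 21.7 and 31.9 in control, 20.5, 37.7 and 36.1 in the Fip200 KO, 40.6, 36.3 and 49.6 in the Atg5 KO libraries and 74.1, 71.1 and 71.7 in those of Atg7 KO. The Atg7 KO libraries were above all others and close together. Samd9l rose in Atg7 KO cells (29.7 ± 7.15 to 72.3 ± 1.61 RPKM, SD, n = 3 each, log2 fold change 1.30, standard error 0.20, adjusted p = 0.0144 from limma), and the call held when any 1 of the 6 libraries was left out. It was lost with the prefix term (1.08, adjusted p = 0.507 from limma, where its alternatives ranged from 0.0118 to 0.507).

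Cmpk2, a mitochondrial nucleotide kinase, was at 9.97, 9.05 and 7.06 RPKM in control, 0.696, 4.08 and 20.4 in the Fip200 KO, 14.3, 11.1 and 18.8 in the Atg5 KO libraries and 61.8, 16.8 and 24.4 in those of Atg7 KO. Fip200 KO replicates thus lay on both sides of control. Cmpk2 rose in Atg7 KO cells (log2 fold change 1.72, standard error 0.44, adjusted p = 0.0463 from limma). The call was lost without control replicate 2 (1.75) or control replicate 3 (1.58), with all 12 libraries in one fit (adjusted p = 0.178 from limma) and with the prefix term (1.26, adjusted p = 0.848 from limma). Its neighbour Rsad2, which encodes viperin, was at 41.0, 46.1 and 26.4 RPKM in control, 13.3, 14.4 and 54.9 in the Fip200 KO, 69.7, 62.6 and 55.0 in the Atg5 KO libraries and 180, 39.8 and 63.5 in those of Atg7 KO. It was called in no KO cells, although the Atg5 KO libraries did not overlap with control (log2 fold change 0.75, under the minimum).

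Oasl2, an oligoadenylate synthetase-like protein, was at 21.1, 14.96 and 9.38 RPKM in control, 3.09, 4.69 and 12.8 in the Fip200 KO, 19.8, 14.4 and 55.5 in the Atg5 KO libraries and 77.8, 22.7 and 33.1 in those of Atg7 KO. Oasl2 rose in Atg7 KO cells (log2 fold change 1.40, standard error 0.47, adjusted p = 0.0890 from limma), with all 3 libraries above control. The call was lost without control replicate 2 (1.43) or 3 (1.11) and without Atg7 KO replicate 1 (0.91) or 3 (1.52), and with no filter or all 12 libraries in one fit. With the prefix term its value was −0.015. In Fip200 KO cells its log2 fold change of −1.25 did not pass (adjusted p = 0.300 from limma), and without Fip200 KO replicate 3 it was called at −1.79. Oas1a, a synthetase that activates RNase L and has close paralogs, lay at 10.3 to 12.1 RPKM in Fip200 KO and at 16.9 to 25.0 in control libraries. Mx2, a dynamin-like GTPase, was at 3.03 to 5.37 RPKM in control and 5.83 to 8.80 in Atg7 KO libraries. Eif2ak2, which encodes the kinase PKR, was at 22.5 to 43.9 RPKM in control, 18.9 to 44.7 in the Fip200 KO, 38.2 to 71.4 in the Atg5 KO libraries and 36.6 to 54.8 in those of Atg7 KO. These 3 genes were not called.

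**Figure D5:**
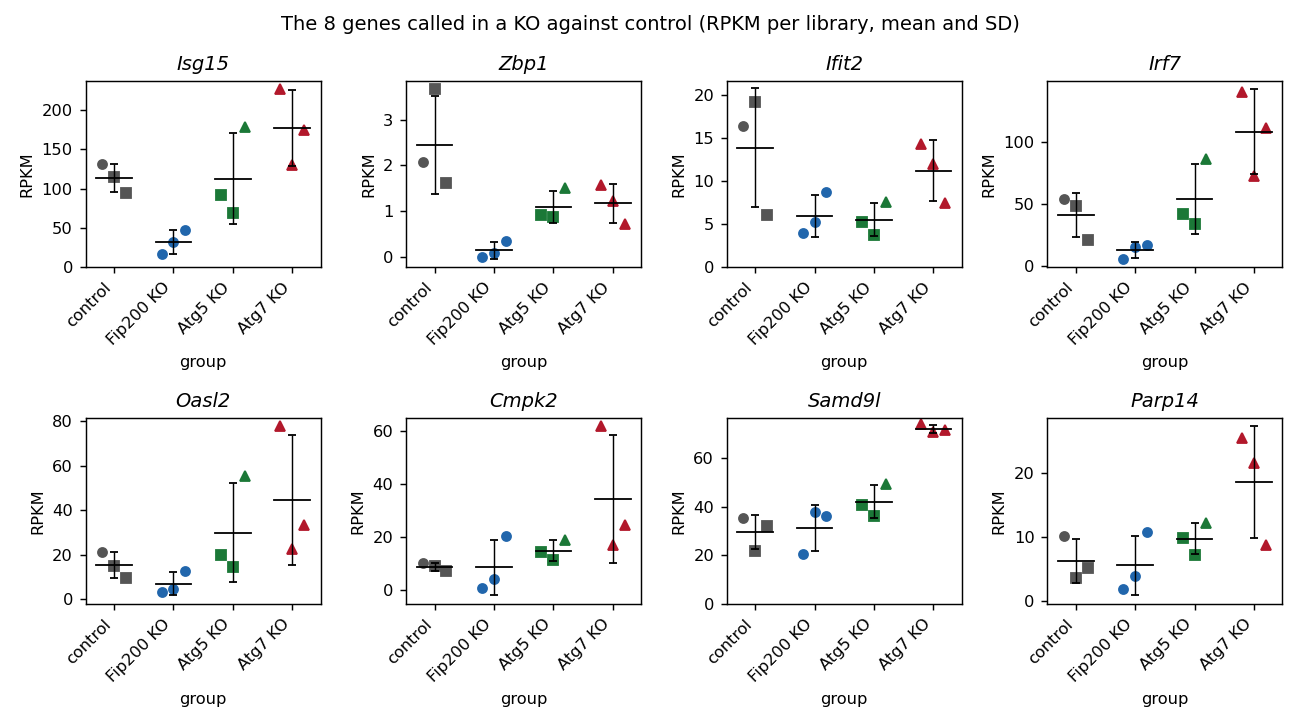
RPKM of the 8 called genes in each library, with the mean (bar) and SD (whiskers) of the 3 replicates of a group. Marker shape gives the library-name prefix. Isg15 in Fip200 KO lies at 16.8 to 47.7 RPKM, below control at 94.8 to 131, and Samd9l in Atg7 KO at 71.1 to 74.1, above control at 21.7 to 35.4.

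Interferon-inducible GTPases attack the vacuoles of intracellular pathogens. None of the 5 was called in any KO cells. Gbp2 was at 4.88 to 9.90 RPKM in control and at 2.35 to 3.16 in Fip200 KO libraries, with no overlap (log2 fold change −1.30, adjusted p = 0.120 from limma). Gbp3 was at 15.8 to 19.6 RPKM in control, 2.82, 4.01 and 16.3 in the Fip200 KO, 13.4 to 44.0 in the Atg5 KO libraries and 25.7 to 52.0 in those of Atg7 KO. Igtp, also called Irgm3, was at 5.58 to 7.06 RPKM in control, 2.70 to 5.38 in Fip200 KO and 7.29 to 8.79 in Atg7 KO libraries, so that it lay below control in the first and above it in the last. Irgm1, a regulator of the family with a reported link to autophagy, was at 18.6 to 40.02 RPKM in control, 8.20 to 43.7 in Fip200 KO and 44.0 to 62.1 in Atg7 KO libraries. Gbp7 was at 5.02 to 7.85 RPKM in control and 8.03 to 20.9 in Atg7 KO libraries. Gbp genes are close paralogs, so reads may be split between them.

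Parp14 belongs with Parp9 and Dtx3l, enzymes that attach ADP-ribose or ubiquitin and that modulate interferon signaling. Parp14 was at 10.1, 3.54 and 5.19 RPKM in control, 1.89, 3.88 and 10.8 in the Fip200 KO, 9.79, 7.22 and 12.2 in the Atg5 KO libraries and 25.4, 21.5 and 8.71 in those of Atg7 KO. Parp14 rose in Atg7 KO cells (log2 fold change 1.48, standard error 0.48, adjusted p = 0.0807 from limma), although Atg7 KO replicate 3 lay below control replicate 1. The call was lost without control replicate 2 (1.16) or 3 (1.41) and without Atg7 KO replicate 1 (1.19) or 2 (1.31), and with no filter, all 12 libraries in one fit or the prefix term (1.35). Parp9 was at 13.0 to 20.2 RPKM in control, 3.92 to 14.1 in the Fip200 KO, 12.03 to 18.3 in the Atg5 KO libraries and 14.3 to 25.9 in those of Atg7 KO. Dtx3l was at 7.77 to 10.3 in control and 3.61 to 11.6 in Fip200 KO libraries. The 3 genes are consecutive in RefSeq and Dtx3l overlaps with Parp9, so reads cannot be told apart there without strand.

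Membrane restriction factors and the most abundant genes. Ifitm3, which blocks viral fusion, Bst2, the virion-tethering protein tetherin, Lgals3bp, a secreted glycoprotein, and Isg15 had the highest mean levels. Bst2 was at 787, 454 and 508 RPKM in control, 229, 257 and 334 in the Fip200 KO, 431, 370 and 650 in the Atg5 KO libraries and 601, 559 and 711 in those of Atg7 KO. All Fip200 KO libraries lay below control (583 ± 179 against 273 ± 54.6 RPKM, SD, n = 3 each, log2 fold change −1.07), but its adjusted p of 0.150 from limma did not pass. Without Fip200 KO replicate 3 Bst2 was called at −1.22. Ifitm3 was at 973, 1107 and 862 RPKM in control, 714, 1044 and 461 in the Fip200 KO, 670, 642 and 886 in the Atg5 KO libraries and 1113, 901 and 1293 in those of Atg7 KO. Lgals3bp was at 260, 227 and 210 RPKM in control, 126, 186 and 155 in the Fip200 KO, 184, 176 and 281 in the Atg5 KO libraries and 226, 215 and 245 in those of Atg7 KO. Lgals3bp did not overlap with control in Fip200 KO cells (log2 fold change −0.59, adjusted p = 0.251 from limma), and neither gene was called.

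Of the remaining 5 genes, Ifi27 stood against the others. Ifi27, which encodes a mitochondrial and nuclear membrane protein, was at 25.5, 42.7 and 20.3 RPKM in control and 145, 47.0 and 101 in Fip200 KO libraries, all above control (log2 fold change 1.64, adjusted p = 0.162 from limma, not called). Ifi44 gave the opposite picture, with 123, 56.0 and 82.5 RPKM in control and 8.80, 27.0 and 31.5 in Fip200 KO libraries (log2 fold change −2.05, adjusted p = 0.136 from limma, not called). Rtp4, a receptor transporter, spanned 4.72 to 41.2 RPKM in Fip200 KO and 25.3 to 45.9 in control libraries. Xaf1, a factor in cell death, was at 4.95 to 15.8 RPKM in Fip200 KO and 10.8 to 17.2 in control libraries, and Ifi35, which binds the factor NMI, at 10.9 to 21.2 and 17.6 to 24.4. None of the 5 was called in any KO cells.

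The KO cells were then compared with each other in a fit of all 12 libraries. None of the 38 genes was called in any of the 3 comparisons, and 0.0% of 12233 tested genes were, by limma and, for the 38 genes, also by voom. At an unadjusted p under 0.05, 28 genes were higher and 1, Ifi27, lower in Atg7 KO than in Fip200 KO cells, where 3.26% of all genes were higher and 4.23% lower. The median log2 fold change of the 38 genes was 1.21 there, against −0.017 over all genes, and 37 of 38 values were above 0. The largest was that of Irf7 (3.13, adjusted p = 0.203 from limma), with 72.6 RPKM or more in Atg7 KO against 17.1 or less in Fip200 KO libraries. Isg15 followed the same order (2.53, adjusted p = 0.203 from limma). The libraries of 20 genes did not overlap, all higher in Atg7 KO cells (3.86% of all genes), and 0 were lower (4.37%). In Atg5 KO against Fip200 KO cells 9 genes were higher at an unadjusted p under 0.05 (4.36% of all genes) and 0 lower (3.22%), with a median of 0.74. That median was 0.364 without Fip200 KO replicate 1, 0.424 without Atg5 KO replicate 3 and 0.97 without Fip200 KO replicate 3. The libraries of 8 genes did not overlap, all higher in Atg5 KO cells (8.44% of all genes), and 0 were lower (5.91%). In Atg7 KO against Atg5 KO cells Ifit1, Ifit2 and Samd9l were higher (1.51% of all genes) and 0 lower (3.08%), with a median of 0.53. Without overlap, Ifit1, Samd9l and Ifitm3 were higher (5.38%) and 0 lower (11.2%). With Atg5 KO replicate 3 left out, 14 genes were higher at an unadjusted p under 0.05 (507 of 12207 genes in either direction), with a median of 0.853. With Atg5 KO replicate 2 left out, 1 gene was higher (291 of 12196 genes in either direction), with a median of 0.292.

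The counts of genes called in comparisons with Fip200 KO cells turned on Fip200 KO replicate 3. Without it, 25 of 38 genes were called higher in Atg7 KO than in Fip200 KO cells, where 1.63% of 12179 genes were, and 0 lower (1.67%). In Atg5 KO against Fip200 KO cells 11 genes were called higher (1.35% of all genes) and 0 lower (1.11%), and against control 9 genes were called lower in Fip200 KO cells (3.68% of 11659 genes) and 0 higher (1.45%). Atg5 KO replicate 3 enters the fit of Atg7 KO against Fip200 KO cells through the shared spread. Without it, 1 of the 38 genes was called there, where 3 of 12207 genes were called higher and 0 lower. The gene was Isg15 (adjusted p = 0.0901 from limma, where its alternatives ranged from 0.0348 to 0.9998).

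The values also moved with the names of the libraries, whose prefix differs within groups. Control replicate 1 and all Fip200 KO libraries share 1 prefix, control replicates 2 and 3 and Atg5 KO replicates 1 and 2 another, and Atg5 KO replicate 3 and all Atg7 KO libraries the last. The labels do not say what the prefix stands for. Within the first, the median log2 difference of the 38 genes between Fip200 KO and control was −0.90, and 35 of 38 were below 0. Isg15 was at −2.14, Zbp1 at −2.02 and Irf7 at −2.18 there, against a single control library and with no test. Within the second, the median between Atg5 KO and control was −0.021, with 20 of 38 below 0, and Ifit2 was at −1.20. Atg7 KO cells have no control of their prefix. With the prefix as a term in the fit of 12 libraries, the medians were −0.90 for Fip200 KO, −0.021 for Atg5 KO and −0.125 for Atg7 KO, and 1, 0 and 0 genes were called. Of all 12233 genes, 45 were called lower and 2 higher for Fip200 KO, 411 and 252 for Atg5 KO, and 30 and 8 for Atg7 KO in that fit. The member called was Bst2 (log2 fold change −1.54, adjusted p = 0.0933 from limma, where its alternatives ranged from 0.0476 to 0.546). In that fit the Fip200 KO and Atg5 KO values repeat those within their prefixes, so they are no separate check. The Fip200 KO values and the Bst2 call rest on control replicate 1 alone as control. That library was the highest control for 28 of 38 genes. The Atg7 KO value rests on Atg5 KO replicate 3 alone as the bridge to control, and Atg7 KO and prefix cannot otherwise be told apart. All Fip200 KO libraries carry the first prefix and all Atg7 KO libraries the last. With the term, the median between them fell from 1.21 to 0.732, and the genes at an unadjusted p under 0.05 from 29 to 2, while those of all 12233 genes fell from 916 to 447. That between Atg5 KO and Fip200 KO cells went from 0.74 to 0.816, and these genes from 9 to 4 (927 to 555 of all genes). The median between Atg7 KO and Atg5 KO cells went from 0.53 to −0.006, with 19 of 38 values below 0 and 0 genes at an unadjusted p under 0.05, after 3 without the term (562 to 410 of all genes).

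The pathway upstream of these genes was measured from a fixed list of 38 ligands, receptors, kinases, adaptors and regulators. Of the ligand genes, Ifne alone was in the tables and was at most 0.697 RPKM. The receptor genes Ifnar1 (12.3 to 25.5 RPKM), Ifnar2 (8.51 to 17.9), Ifngr1 (6.19 to 22.6), Ifngr2 (21.5 to 31.1) and Il10rb (22.1 to 40.8) were expressed in every library, whereas Ifnlr1 of the interferon lambda receptor was at most 0.0248. Jak1 was at 44.8 to 79.1 RPKM, Jak2 at 4.38 to 11.0 and Tyk2 at 4.08 to 10.6, and none of these kinases was called. For Fip200 KO 0 of 27 tested pathway genes were called, where 1.64% of all genes were lower and 0.347% higher. For Atg5 KO 1 of 26 was higher (4.31% of all genes) and 1 lower (6.94%), and for Atg7 KO 1 of 27 was higher (3.29%) and 0 lower (6.81%). Mb21d1, which encodes the DNA sensor cGAS, rose in Atg5 KO (2.16 to 4.80 mean RPKM, log2 fold change 1.00, adjusted p = 0.00747 from limma) and also in Atg7 KO cells (5.17 mean RPKM, 1.06, adjusted p = 0.0403 from limma). Irf5, a factor of myeloid interferon responses, fell in Atg5 KO cells (1.66 to 0.353 mean RPKM, log2 fold change −1.33, adjusted p = 0.00673 from limma), and since its Atg5 KO values are all under the 0.5 RPKM of the filter it was tested through its control libraries alone.

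A list of 55 further interferon-stimulated genes that are not among the 38 was measured as well. Of 51 tested genes, 5 (9.80%) were called lower in Fip200 KO cells, against 1.64% of all genes. For Atg5 KO 5 (9.80%) were lower and 3 (5.88%) higher, against 6.94% and 4.31%, and for Atg7 KO 3 (5.88%) were lower and 6 higher, against 6.81% and 3.29%. The Atg5 KO shares and the lower share of Atg7 KO were thus near those of all genes. Their median log2 fold changes were −0.57, 0.024 and 0.32. Slfn2, a regulator of immune-cell quiescence, fell in all KO cells, from 45.2 mean RPKM in control to 7.20 for Fip200 KO, 8.36 for Atg5 KO and 12.8 for Atg7 KO (log2 fold changes −2.64, −2.45 and −1.78). Oas3, an oligoadenylate synthetase, fell from 16.7 to 2.31 in Fip200 KO and 3.60 in Atg5 KO cells (−2.58 and −2.19), and Slfn5 also fell in all KO cells (between −1.92 and −1.47). Oasl1, a synthetase-like protein known to repress Irf7 translation, rose from 13.9 mean RPKM to 55.6 for Atg5 KO and 142 for Atg7 KO (2.12 and 3.01). Gbp9 rose from 16.8 to 71.4 and 36.9 (2.13 and 1.17), and Apol9b from 11.7 to 42.6 in Atg7 KO cells (1.84). Adjusted p-values of these calls from limma were at most 0.0579. Mx1, another dynamin-like GTPase, was called lower in all KO cells, from 55 to 84 reads in control to 3 to 9 in KO libraries (adjusted p at most 0.0908 from limma), and is named after its values were seen. It too passed the filter through control alone. Slfn and Apol9 genes are families of close copies, so the split of reads between them is uncertain.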

How the data were processed

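RNA was measured in 12 libraries of cultured 562 cells, from total RNA with a directional kit. Per the study's methods, the authors aligned reads with TopHat2, counted reads of each known transcript in Bioconductor and tested groups with edgeR. Build, annotation, versions and strand setting are not given in the sources used here. The authors deposited RPKM per library, a unit read from the values, and group means, a signal on the scale of reads after size factors. The authors' own fold changes, p-values and adjusted p-values are also in the tables and were not used. Whole reads recovered from RPKM and the group means came out whole (within 0.01) for 100% of values under 1000 reads, and no library duplicated another.

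Genes that reached 0.5 RPKM in 3 or more libraries were tested with limma 3.58.1 (R 4.3.3) on log2(RPKM + 0.5), with a trend in the prior, in the 6 libraries of a KO and control, or in all 12 libraries between KO cells, and adjusted by Benjamini and Hochberg over all genes. On simulated libraries with 200 genes changed by a log2 of 2, 77%, 90.5% and 84.5% were called for Fip200 KO, Atg5 KO and Atg7 KO, with 0 in the wrong direction, and 19, 7 and 10 unchanged genes were called. The changed genes had a mean of 2 RPKM or more, and noise was drawn separately for each gene. These shares therefore do not cover smaller changes, genes as low as Zbp1 or genes that move together between libraries. Alternatives changed the pseudocount (0.1 or 1), filter, scaling, libraries, prefix term, replicate block, fold minimum or test (voom). Same-numbered samples did not deviate together, so numbers were not taken as pairs. The genes, lists and tests were chosen with earlier results of these data known. Values per library are given for genes called against control, the 4 transcription factors and the 4 most abundant genes. Others are given where a neighbour or a gap between groups is described, which was decided after their values were seen. Promoters come from RefSeq (GRCm38.p6), matched by gene ID, and RefSeq was otherwise used for gene order alone. In bulk RNA, fewer expressing cells and less RNA per cell cannot be told apart. Python 3.11.15, numpy 2.4.6, pandas 2.3.3 and matplotlib 3.10.9 were used.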

Additional observations from a re-analysis of the deposited data

Results flagged for a closer look

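Irf7 lay below all control libraries in every Fip200 KO library and above all control libraries in every Atg7 KO library. The difference between these effects is the log2 fold change of Atg7 KO against Fip200 KO cells, 3.13, which did not pass the test over all genes (adjusted p = 0.203 from limma). Igtp showed the same arrangement, with a log2 fold change of 0.99 between Atg7 KO and Fip200 KO cells (adjusted p = 0.549 from limma).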

How the results depend on the processing

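The calls were few and most did not withstand a change of setting. Genes called lower in Fip200 KO cells numbered 2, and 6 with all 12 libraries in one fit, 1 with no filter, the prefix term or voom, 0 with the replicate block, and 0 to 9 when each replicate was left out. Calls over all genes moved too, from 193 lower to 450 with all 12 libraries, 130 with no filter, 45 with the prefix term, 163 with voom, 80 with the block and 0 without control replicate 2 or 3, so these zeros say nothing particular to the 38 genes. Those called higher numbered 0, and 1 with all 12 libraries (41 and 158 of all genes). In Atg5 KO cells 1 was called lower, and 2 with a pseudocount of 0.1, 3 with no minimum fold change, 0 with no filter, all 12 libraries, the prefix term or the replicate block, and 0 to 2 when each replicate was left out, where 821 of all genes were lower, and 929, 2207, 821, 652, 411 and 817 under those settings in order. Over the left-out replicates 570 to 841 of all genes were called lower. Of the 38 genes, those called higher numbered 0, 5 with no minimum fold change (510 and 2707 of all 11833 genes) and 0 to 2 over the left-out replicates (415 to 661 of all genes). In Atg7 KO cells 5 were called higher, and 11 with no minimum fold change, 3 with no filter, 2 with all 12 libraries, 0 with the prefix term, and 1 to 10 over the left-out replicates. Of all genes, 388 were called higher there, and 1337, 366, 350 and 8 under those 4 settings. Without control replicate 1 or Atg7 KO replicate 2 there were 10 (491 and 567 of all genes), and without control replicate 3 there was 1 (205 of all genes). The Atg7 KO median of 0.56 became −0.125 with the prefix term, and Oasl2 (−0.015) and Isg15 (−0.435) turned below 0 there. Counts between KO cells stayed at 0 except without 1 replicate, where they ranged from 0 to 11 in Atg5 KO against Fip200 KO and from 0 to 25 in Atg7 KO against Fip200 KO cells. The causes were not tested. Replicate numbers did not pair the samples (correlations of same-numbered deviations between −0.50 and 0.25), so losses under the block are no sign of a weaker effect. Low reads limit Zbp1, at 3 reads or fewer in 1 library, and, outside the 38 genes, Mx1, at 3 to 9 reads in every KO library.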
